A study of Rattus norvegicus with 84 samples.

Results

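The chaperones described here are 10 genes of the heat shock protein families and their partners: Hspa1a, Hspa1b, Hspa5, Hspa8, Hsph1, Hsp90aa1, Hsp90ab1, Hsp90b1, Dnajb1 and Hspb1. They were chosen by gene symbol, and no measured value entered the rule. For each of the 3 subregions, 9 of the 10 had an entry under their symbol, among 15553 genes listed for CA1, 15706 for CA3 and 15374 for the dentate gyrus (DG). Hspa1b had none under its symbol. An entry named LOC108348108 carries the gene ID that RefSeq gives to Hspa1b in rat, and it is reported as Hspa1b but kept out of the counts, which are over 9 genes. All 9, and Hspa1b, passed the filter on low values (at least 10 normalized reads in at least 12 of 28 libraries) in every subregion.

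Messenger RNA was sequenced from CA1, CA3 and DG tissue of male F344 rats, an inbred strain. The 16 middle-aged rats were 12 months old and the 12 young rats 5 months old. Each rat gave 1 library per subregion, all from 1 hemisphere, and the labels name no mutation, transgene or treatment for either age. The series title links these profiles to how spatial pattern separation changes with age. Behaviour was not analysed here.

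Chaperones of the HSP70 family bind unfolded stretches of other proteins and release them in a cycle driven by ATP, which J-domain proteins start and exchange factors reset. HSP90 proteins take over clients such as kinases and steroid receptors at a later stage of folding. Heat shock factors drive the inducible members when unfolded protein builds up in the cytosol, and a separate response drives the members that reside in the endoplasmic reticulum. In the brain the inducible HSP70 is low at rest, and neurons raise it less readily than glia do after heat.

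Library depth was 14.4 to 23.4 M recovered reads (median 18.0). Summed markers of CA1, CA3 and DG were higher in every library of their own subregion than in any library of the other two. The animal numbers fall into 2 runs, which the labels do not call batches: the first holds 10 middle-aged and 6 young rats, the second 6 of each age. The numbers of the first run are unbroken, with all young rats numbered before all middle-aged ones. In the second run the young and the middle-aged rats also form separate blocks of numbers, with a gap between them. Age and block of numbers therefore cannot be told apart within either run. For the age effects of the 10 chaperone genes, values within each run, or from a fit with a term for the run, are therefore given where they change whether a gene passed. For the genes of the lists further below, the number of calls lost in each run is given instead. In CA1 the mitochondrial genome gave a mean share of 11.5% of reads at 12 months (SD 1.81, n = 16) against 8.54% at 5 months (SD 2.43, n = 12), with smaller gaps of the same sign in CA3 and DG. Its part in the age effects below was not tested. The samples are bulk tissue, so fewer cells of a type and less RNA per cell cannot be told apart.

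Hspa1a, the stress-inducible HSP70, fell in all 3 subregions at 12 months. Dnajb1, the J-domain partner that delivers clients to HSP70, fell in CA1 and DG, and the small heat shock protein gene Hspb1 fell in DG. Rises were fewer: Hsp90aa1, the inducible cytosolic HSP90, in CA3 and Hsp90b1, the HSP90 of the endoplasmic reticulum, in DG. In CA1, 2 of the 9 genes passed an adjusted p of 0.05 in limma, both lower, where 25.2% of all genes tested passed. In CA3, 2 of 9 passed, 1 in each direction, against 21.7% of all genes. In DG, 4 of 9 passed, 1 higher and 3 lower, against 37.1%. These shares are close to those of all genes, and the median log2 effect of the 9 genes was -0.09 in CA1, -0.02 in CA3 and -0.04 in DG, beside 0.00, 0.00 and 0.01 over all genes. On the mean of a rat's 3 subregions, 5 of the 9 passed, against 50% of all genes: Hspa1a, Dnajb1 and Hspb1 fell, and Hsp90aa1 and Hsp90b1 rose. By run, Hsp90b1 changed by 0.40 in the second (adjusted p = 1.51e-05) and 0.03 in the first (adjusted p = 0.747). In that order, Hsp90aa1 changed by 1.26 and 0.27 (adjusted p = 4.79e-05 and 0.255), and Hspb1 by -0.15 and -0.36 (adjusted p = 0.266 and 0.0385). Hsp90ab1 passed in both with opposite signs, 0.11 and -0.14 (adjusted p = 0.0348 and 0.0180). Hsph1 passed in the second only (0.14, adjusted p = 0.00456), Hspa5 in the first only (-0.19, adjusted p = 0.00475).

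**Figure D1:**
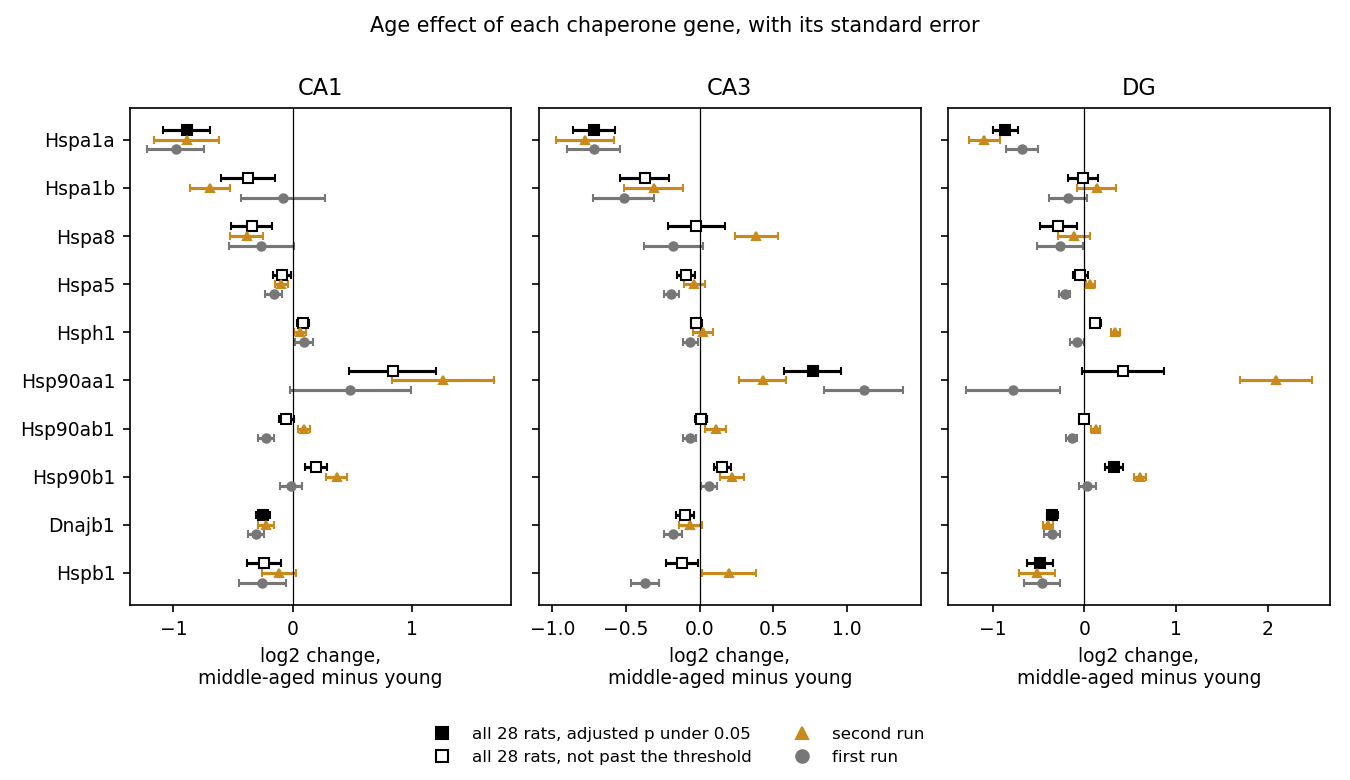
Log2 change of each chaperone gene (middle-aged minus young, horizontal axis) in CA1, CA3 and DG, with bars of 1 standard error, for all rats (squares, filled where the adjusted p was under 0.05), the second run (triangles) and the first run (circles); each panel has its own scale. Hspa1a lies at -0.89, -0.72 and -0.86, far left of 0 in all 3 panels, while the wide bars of Hsp90aa1 and Hspa8 set them apart from the narrow ones of Hsp90ab1 and Hsph1.

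Of the 9 genes, Hspa1a had the smallest p in each subregion. In CA1 it lay between 162 and 369 normalized reads in the 16 middle-aged libraries (median 252) and between 222 and 942 in the 12 young libraries (median 501). Every middle-aged library was below the young median, and 7 of the 12 young libraries were above all 16 middle-aged ones, though the ranges overlapped. The log2 change was -0.89 ± 0.20 (standard error; adjusted p = 0.00283). In CA3 the gene lay between 312 and 697 normalized reads in the 16 middle-aged libraries (median 466) and between 416 and 1321 in the 12 young libraries (median 728). Again all 16 middle-aged libraries were below the young median, and the change was -0.72 ± 0.14 (adjusted p = 0.00109). In DG its values were between 289 and 670.4 normalized reads in the 16 middle-aged libraries (median 429) and between 494 and 1256 in the 12 young libraries (median 765). There 11 of 16 middle-aged libraries were below every young one, the change was -0.86 ± 0.13 (adjusted p = 0.000121), and it ranked 29 by p among 14526 genes.

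Hspa1a was lower at 12 months in both runs of animals. In the second and the first run the log2 change was -0.89 and -0.98 in CA1, and -0.78 and -0.72 in CA3, all past the threshold. In DG it was -1.09 in the second run (adjusted p = 0.000126) and -0.68 in the first (adjusted p = 0.0981), where 25 genes in all passed. The young rats differed more among themselves: the coefficient of variation was 23.7% in middle-aged and 51.5% in young CA1, 22.6% and 35.4% in CA3, and 24.9% and 29.0% in DG. This spread was described and not tested.

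Hspa1b, the near-identical copy of Hspa1a, did not pass in any subregion when both runs were pooled. It lay between 30.5 and 133 normalized reads in the 16 middle-aged libraries (median 83.1) and between 35.8 and 202 in the 12 young libraries (median 118) in CA1, with a log2 change of -0.37 ± 0.23 (adjusted p = 0.219). The change was -0.37 ± 0.17 in CA3 (adjusted p = 0.109) and -0.01 ± 0.16 in DG (adjusted p = 0.955). By run, the change in CA1 was -0.69 in the second run (adjusted p = 0.00589) and -0.08 in the first (adjusted p = 0.911). With a term for the run, Hspa1b passed in CA3 (-0.42, adjusted p = 0.0414). Reads that match both copies may have been split or dropped in the authors' counting, so each copy alone is uncertain. When the 2 entries were summed, the pair fell by 0.80 ± 0.17 in CA1 (adjusted p = 0.00221), 0.63 ± 0.12 in CA3 (adjusted p = 0.000758) and 0.66 ± 0.10 in DG (adjusted p = 9.96e-05) on the log2 scale.

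**Figure D2:**
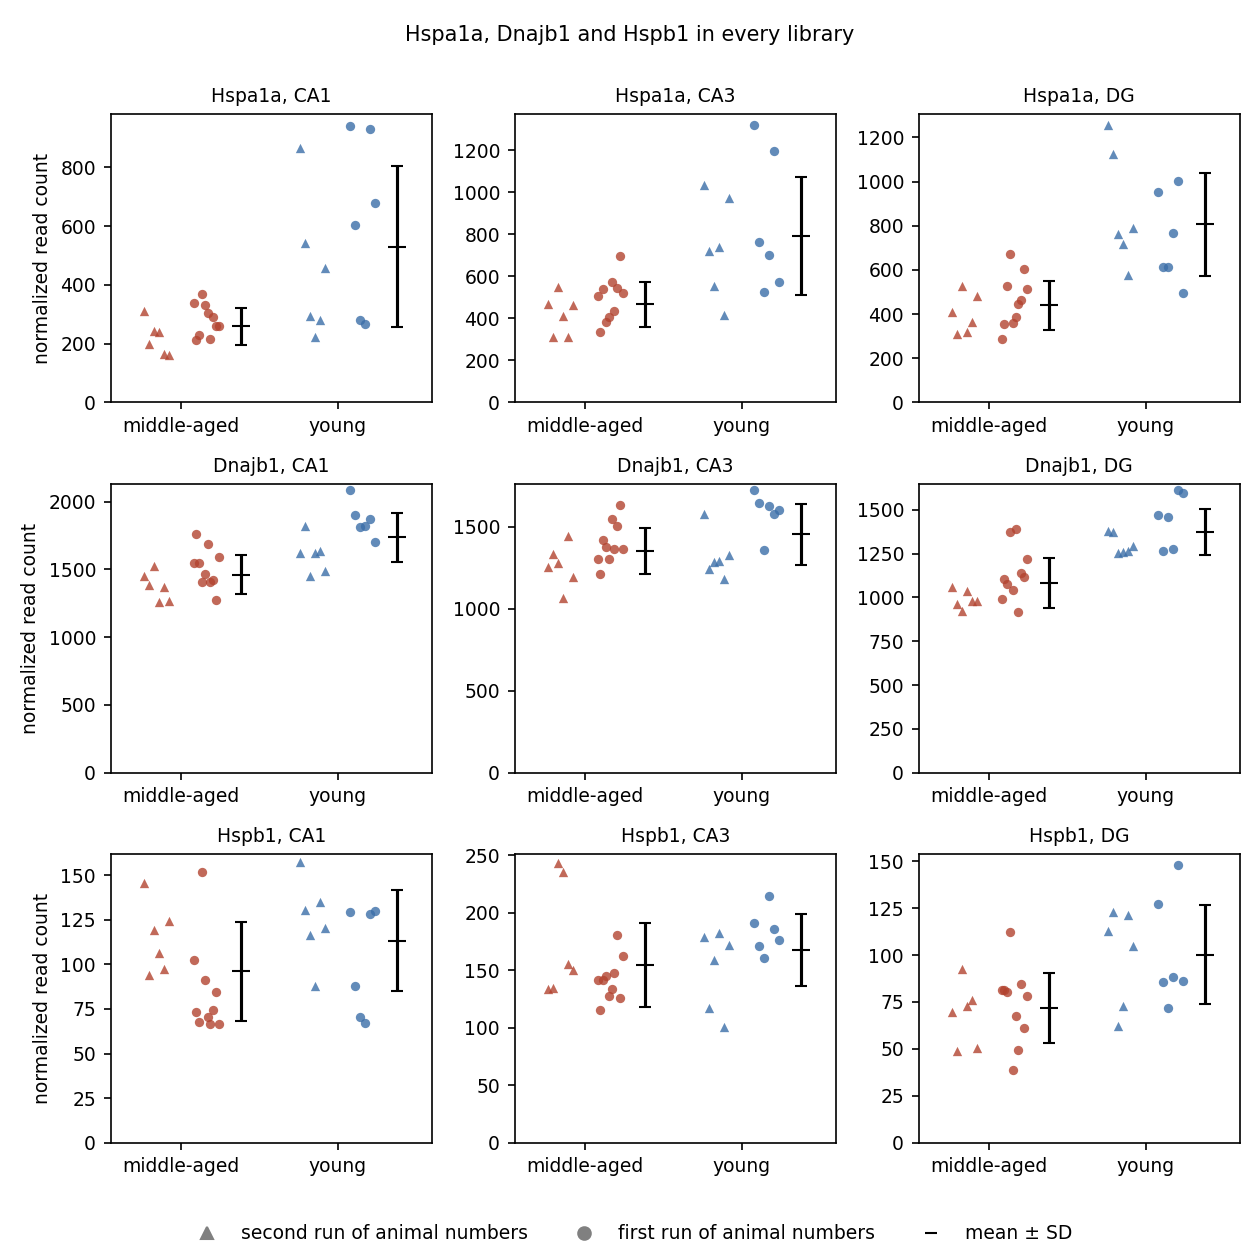
Normalized read counts (vertical axis, from 0) of Hspa1a, Dnajb1 and Hspb1 in every library by age and subregion, with the run of animal numbers marked and the mean and SD of each age beside the points. All 16 middle-aged DG libraries lie below the young median of 765 for Hspa1a, and 14 of them lie below every young library for Dnajb1.

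Dnajb1 moved less in size but with little spread. In DG it lay between 918 and 1389.7 normalized reads in the 16 middle-aged libraries (median 1051) and between 1255 and 1612 in the 12 young libraries (median 1335). The ages nearly separated, with 14 of 16 middle-aged libraries below every young one, and the log2 change was -0.35 ± 0.06 (adjusted p = 0.000292). In CA1 it lay between 1262 and 1759.9 normalized reads in the 16 middle-aged libraries (median 1438) and between 1448 and 2087 in the 12 young libraries (median 1758). There the groups overlapped: 8 of 16 middle-aged libraries were below every young one and 6 of 12 young libraries above every middle-aged one, with a change of -0.25 ± 0.06 (adjusted p = 0.00332). In CA3 the change was -0.10 ± 0.06 and did not pass (adjusted p = 0.240). In the second and the first run the change was -0.22 and -0.31 in CA1, both past the threshold, and -0.40 and -0.35 in DG, where the first run alone did not pass (adjusted p = 0.0981).

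Hspb1 encodes a small heat shock protein that holds unfolded proteins without ATP. In DG it lay between 38.9 and 112 normalized reads in the 16 middle-aged libraries (median 74.5) and between 61.9 and 148 in the 12 young libraries (median 96.4). The groups overlapped, but 15 of the 16 middle-aged libraries were below the young median, and the log2 change was -0.48 ± 0.14 (adjusted p = 0.00974). The change was -0.52 in the second run and -0.46 in the first, where it did not pass alone (adjusted p = 0.189). In CA1 the values averaged 96.0 ± 27.6 normalized reads at 12 months (SD, n = 16) and 113 ± 28.2 at 5 months (SD, n = 12), a change of -0.24 ± 0.14 (adjusted p = 0.215). In CA3 the change was -0.12 ± 0.11 (adjusted p = 0.465), and the runs differed in sign, with 0.20 in the second run (adjusted p = 0.491) and -0.37 in the first (adjusted p = 0.0318).

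Markers of stimulated cells and of other cell types were counted beside these 3 genes. Of 10 immediate early genes, which rise when neurons are stimulated, 5 fell and 0 rose in CA1, 2 fell and 1 rose in CA3, and 3 fell and 0 rose in DG. Their summed level at 12 and at 5 months had medians of 12495 and 15060 normalized reads in CA1, 6608 and 7835 in CA3, and 5702 and 7043 in DG, with ranges that overlapped. Of 6 mural cell markers, cells of the vessel wall known to express small heat shock proteins, 1 fell in CA1, 1 in CA3 and 2 in DG, and 0 rose, where 25.2%, 21.7% and 37.1% of all genes passed. Their sum was 1251 to 1960 (median 1474) in middle-aged and 1372 to 2227 (median 1899) in young DG. Of 4 markers of oligodendrocyte precursors, 2 fell and 0 rose in each subregion. Of 6 microglia markers, 2 rose in CA1, 5 in CA3 and 1 in DG, and 0 fell. Of 4 markers of CA1 pyramidal cells, 2 fell in CA1, 0 in CA3 and 1 in DG, and 0 rose. All genes of these 5 lists were above 0 in every library. Among 6 astrocyte markers, 1 fell in CA1, and 1 rose and 2 fell in CA3 and in DG. Among 6 neuron markers, 1 rose and 1 fell in CA1, 1 fell in CA3, and 3 rose and 2 fell in DG. Among 6 oligodendrocyte markers, 1 fell in CA1 and 1 rose in DG. In DG, 1 of 5 endothelial and 2 of 3 CA3 markers fell, and of 4 DG markers 1 rose and 1 fell. Nothing else in these further lists passed, nor did any marker of choroid plexus and ependyma. The sum of the latter reached 19235 in middle-aged (median 412) and 6435 in young CA3 (median 456). In DG it reached 2939 in middle-aged (median 47.8) and 7200 in young rats (median 34.5). The microglia sum reached 27053 in middle-aged (median 6091) and 6258 in young CA1 (median 5708). The part of all these lists in the falls of Hspa1a, Dnajb1 and Hspb1 was not tested.

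Hsph1, a cousin of HSP70 that acts as its exchange factor, is induced by heat like the genes above. It did not pass in any subregion when both runs were pooled. It lay between 4452 and 6719 normalized reads in the 16 middle-aged libraries (median 5153) and between 4481 and 5751 in the 12 young libraries (median 4852) in CA1, with a log2 change of 0.09 ± 0.05 (adjusted p = 0.197). The change was -0.02 ± 0.04 in CA3 (adjusted p = 0.719) and 0.12 ± 0.06 in DG (adjusted p = 0.120). Its values varied little, and in CA3 the 95% interval of the change ran from -0.10 to 0.05. In DG the runs differed, with 0.34 in the second (adjusted p = 8e-05) and -0.08 in the first (adjusted p = 0.518).

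The promoters of the 3 genes that fell are shown to let their heat shock elements be compared. RefSeq's table for build GRCr8 holds a window of 250 bases before to 50 bases after the start for 8 of the 10 genes, and for neither Hspa1b nor Hsp90aa1. The heat shock element is a run of inverted GAA units. Its form with 3 units (GAANNTTCNNGAA or TTCNNGAANNTTC) lies in 0.798% of 33469 promoters, and the form with 2 units (GAANNTTC or TTCNNGAA), which lies within the longer one, in 15.9%, both strands searched. Capitals mark the form with 2 units in the windows of Hspa1a at chr20:3859506-3859805 on the plus strand, Dnajb1 at chr19:41431092-41431391 on the minus strand and Hspb1 at chr12:26432252-26432551 on the minus strand, all 5′ to 3′.
Hspa1a: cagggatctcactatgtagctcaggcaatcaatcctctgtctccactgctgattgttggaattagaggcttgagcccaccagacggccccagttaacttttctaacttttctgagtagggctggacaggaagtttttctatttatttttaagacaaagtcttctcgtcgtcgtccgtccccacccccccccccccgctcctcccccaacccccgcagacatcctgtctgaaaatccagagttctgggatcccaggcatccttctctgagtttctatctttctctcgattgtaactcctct
Dnajb1: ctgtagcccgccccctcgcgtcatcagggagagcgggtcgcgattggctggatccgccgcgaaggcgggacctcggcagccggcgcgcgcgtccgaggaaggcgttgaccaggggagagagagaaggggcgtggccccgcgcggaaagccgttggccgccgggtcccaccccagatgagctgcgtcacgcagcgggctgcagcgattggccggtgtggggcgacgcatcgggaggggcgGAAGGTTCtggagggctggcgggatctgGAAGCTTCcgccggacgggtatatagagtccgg
Hspb1: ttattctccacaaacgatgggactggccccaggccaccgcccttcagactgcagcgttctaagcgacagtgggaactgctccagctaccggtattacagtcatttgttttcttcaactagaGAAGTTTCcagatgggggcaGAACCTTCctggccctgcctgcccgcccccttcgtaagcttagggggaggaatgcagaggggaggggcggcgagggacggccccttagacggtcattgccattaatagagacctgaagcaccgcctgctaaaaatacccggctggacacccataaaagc
Dnajb1 holds 2 such sites, which begin 11 bases before and 17 bases after the start, and Hspb1 holds 2, which begin 129 and 109 bases before it. The annotated window of Hspa1a holds none. Only this window was searched, so sites farther from the annotated start, or at another start of the gene, would have been missed. The form with 3 units was found in Hspa8 (2 sites, 213 and 55 bases before the start) and Hsph1 (1 site, 36 bases before). Neither of these genes passed the pooled test in any subregion. In the second run alone Hsph1 passed in DG and Hspa8 in CA1. A match, or the lack of one, is only a description of the letters in this window.

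The constitutive cytosolic members did not pass in the pooled comparison. Hsp90ab1, the constant HSP90 of neurons and glia, lay between 37010.4 and 43253 normalized reads in the 16 middle-aged libraries (median 40170.3) and between 34722 and 42829 in the 12 young libraries (median 40429.9) in CA3, with a log2 change of 0.01 ± 0.04 (adjusted p = 0.880). The change was -0.06 ± 0.06 in CA1 (adjusted p = 0.530) and -0.01 ± 0.05 in DG (adjusted p = 0.905). The 95% intervals ran from -0.18 to 0.07 in CA1, -0.07 to 0.09 in CA3 and -0.11 to 0.09 in DG. Hspa8, the constant HSP70 that also strips clathrin from vesicles, lay between 71.8 and 239 normalized reads in the 16 middle-aged libraries (median 164) and between 88.8 and 246 in the 12 young libraries (median 195) in CA1, with a change of -0.34 ± 0.17 (adjusted p = 0.134). It was -0.02 ± 0.19 in CA3 (adjusted p = 0.946) and -0.28 ± 0.20 in DG (adjusted p = 0.268). By run, the change of Hspa8 in CA1 was -0.39 in the second run (adjusted p = 0.0417) and -0.26 in the first (adjusted p = 0.581).

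Values of Hspa8, Hsp90aa1 and Hsp90ab1 are uncertain, because these genes have many processed copies. RefSeq names 33 pseudogenes of Hspa8, 23 of Hsp90ab1, 16 of Hsp90aa1 and 2 of Hsp90b1. Copies of Hspa8 and Hsp90aa1 have entries of their own in the tables, and 0 copies of Hsp90ab1 and Hsp90b1 were matched to one. The copy LOC688655 (Hspa8-ps22) had a median over 28 rats of 896 normalized reads in CA1, 1120.3 in CA3 and 887 in DG, above the medians of 183, 208 and 155 for Hspa8 itself. LOC680491 (Hsp90aa1-ps16) had medians of 933, 1354 and 1059.8. How reads that match several copies were counted is not given in the sources used here. Neither copy passed the pooled test of age in any subregion. By run, the change of LOC688655 in CA1 was -0.99 in the second run (adjusted p = 0.00108) and 0.49 in the first (adjusted p = 0.0986), and in DG -0.71 in the second run (adjusted p = 0.000452) and 0.13 in the first (adjusted p = 0.741). With a term for the run, LOC680491 passed in CA3 (0.16, adjusted p = 0.0275). LOC688655 also differed by run in young CA1, with means of 1735 in the second and 608 in the first.

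Hsp90aa1 rose in CA3, where it lay between 1899 and 7376 normalized reads in the 16 middle-aged libraries (median 4114) and between 809 and 3896 in the 12 young libraries (median 2153). Of the 16 middle-aged libraries 15 were above the young median, and the log2 change was 0.77 ± 0.19 (adjusted p = 0.00593). It was 0.43 in the second run alone (adjusted p = 0.0748) and 1.11 in the first (adjusted p = 0.0261). In CA1 it lay between 287 and 4409.6 normalized reads in the 16 middle-aged libraries (median 1598) and between 197 and 1781 in the 12 young libraries (median 934), with a change of 0.84 ± 0.36 that did not pass (adjusted p = 0.0868). By run it was 1.26 in the second run (adjusted p = 0.0338) and 0.48 in the first (adjusted p = 0.592) there. In DG the change was 0.42 ± 0.44 (adjusted p = 0.476), and the runs pointed opposite ways, with 2.09 in the second (adjusted p = 0.000510) and -0.78 in the first (adjusted p = 0.370). The gene varied widely between rats: its coefficient of variation was 33.8% in middle-aged and 37.3% in young CA3, and 73.8% and 82.0% in DG.

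Of the 2 chaperones of the endoplasmic reticulum, Hsp90b1 rose in DG and Hspa5, the HSP70 known as BiP, passed nowhere when both runs were pooled. Hsp90b1 lay between 4315 and 7196 normalized reads in the 16 middle-aged libraries (median 5319.9) and between 3107 and 5709 in the 12 young libraries (median 4358) in DG. Of 16 middle-aged libraries 15 were above the young median, and the log2 change was 0.32 ± 0.10 (adjusted p = 0.00947). By run the change was 0.60 in the second (adjusted p = 1.09e-05) and 0.03 in the first (adjusted p = 0.873). The change was 0.20 ± 0.09 in CA1 (adjusted p = 0.117) and 0.15 ± 0.06 in CA3 (adjusted p = 0.0526). In CA1 it was 0.37 in the second run (adjusted p = 0.00470) and -0.02 in the first (adjusted p = 0.931), and in CA3 Hsp90b1 passed with a term for the run (0.13, adjusted p = 0.0441). Hspa5 lay between 4769 and 7326 normalized reads in the 16 middle-aged libraries (median 5598) and between 5010.0 and 7856 in the 12 young libraries (median 5841) in CA1, with a change of -0.09 ± 0.07 (adjusted p = 0.357). It was -0.09 ± 0.06 in CA3 (adjusted p = 0.272) and -0.04 ± 0.08 in DG (adjusted p = 0.685). With a term for the run, Hspa5 passed in CA1 (-0.13, adjusted p = 0.0300), in CA3 (-0.12, adjusted p = 0.0403) and on the mean of the 3 subregions (-0.12, adjusted p = 0.00107). In CA3 its change was -0.04 in the second run (adjusted p = 0.757) and -0.19 in the first (adjusted p = 0.0424).

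Both genes carry the same rare promoter sequence, printed because it is the known element of this response. Their levels varied together from rat to rat in CA1 but the correlation did not pass in CA3 (r = 0.33, adjusted permutation p = 0.296) or DG (r = -0.06, adjusted permutation p = 0.879). The endoplasmic reticulum stress element (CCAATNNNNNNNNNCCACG, both strands searched) lies in 22 of 33469 RefSeq promoters, or 0.0657%. Capitals mark it in the GRCr8 windows of Hspa5 at chr3:38452766-38453065 on the plus strand and Hsp90b1 at chr7:23012244-23012543 on the minus strand.
Hspa5: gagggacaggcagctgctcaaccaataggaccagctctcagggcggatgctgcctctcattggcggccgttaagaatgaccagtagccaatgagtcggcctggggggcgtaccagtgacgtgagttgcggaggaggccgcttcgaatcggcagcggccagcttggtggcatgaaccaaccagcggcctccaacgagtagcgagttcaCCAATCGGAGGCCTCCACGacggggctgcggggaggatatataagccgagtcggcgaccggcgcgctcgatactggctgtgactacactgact
Hsp90b1: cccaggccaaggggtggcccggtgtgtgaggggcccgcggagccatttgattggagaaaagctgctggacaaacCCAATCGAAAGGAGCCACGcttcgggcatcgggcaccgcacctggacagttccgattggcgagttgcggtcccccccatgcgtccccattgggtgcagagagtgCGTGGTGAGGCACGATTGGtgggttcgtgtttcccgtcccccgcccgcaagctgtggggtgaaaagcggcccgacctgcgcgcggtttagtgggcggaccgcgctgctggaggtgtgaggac
The site of Hspa5 begins 43 bases before the start, and the 2 sites of Hsp90b1 begin 176 and 72 bases before it. The other 6 promoters of the group hold no match.

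Several of these genes differed between the runs of animals within an age. Between runs, 1 of the 9 genes passed in middle-aged and 4 in young CA1, where 6.39% and 18.2% of all genes passed. The counts were 1 and 3 in CA3 (7.08% and 4.29% of all genes) and 1 and 4 in DG (0.668% and 14.1%). Young DG levels of Hsp90b1 averaged 3444 ± 202 normalized reads in the second run and 5330.3 ± 242 in the first (SD, n = 6 each), so the 2 runs did not overlap. For Hspa5 they averaged 5108 ± 103 in the second and 7409.5 ± 653 in the first, and for Hsp90ab1 in young CA1 27622 ± 1189.7 and 36222 ± 2353. A test of the difference of the age effect between runs passed for 1 of 9 genes in CA1 (3.24% of all genes), 0 in CA3 (0.577%) and 5 in DG (6.15%). Hspa1a, Dnajb1 and Hspb1 were not among them. The share of all genes at an unadjusted p under 0.05 was not counted. At that threshold, in limma, Hsp90ab1 and Hsp90b1 passed in CA1, Hspa8, Hsp90ab1 and Hspb1 in CA3, and the same 5 in DG. Of these Hspb1 in CA3 had a difference of 0.57 (adjusted p = 0.178). With each run alone, 5 of 9 genes passed for age in the second and 2 in the first run in CA1 (33.8% and 3.19% of all genes), 1 and 4 in CA3 (16.5% and 4.83%), and 6 and 0 in DG (46.9% and 0.172%). At an unadjusted p under 0.05, in limma, 5 of the 9 passed in the first run in DG. The 0.172% is for adjusted p and cannot be set beside this count, since the unadjusted share of all genes was not counted.

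**Figure D3:**
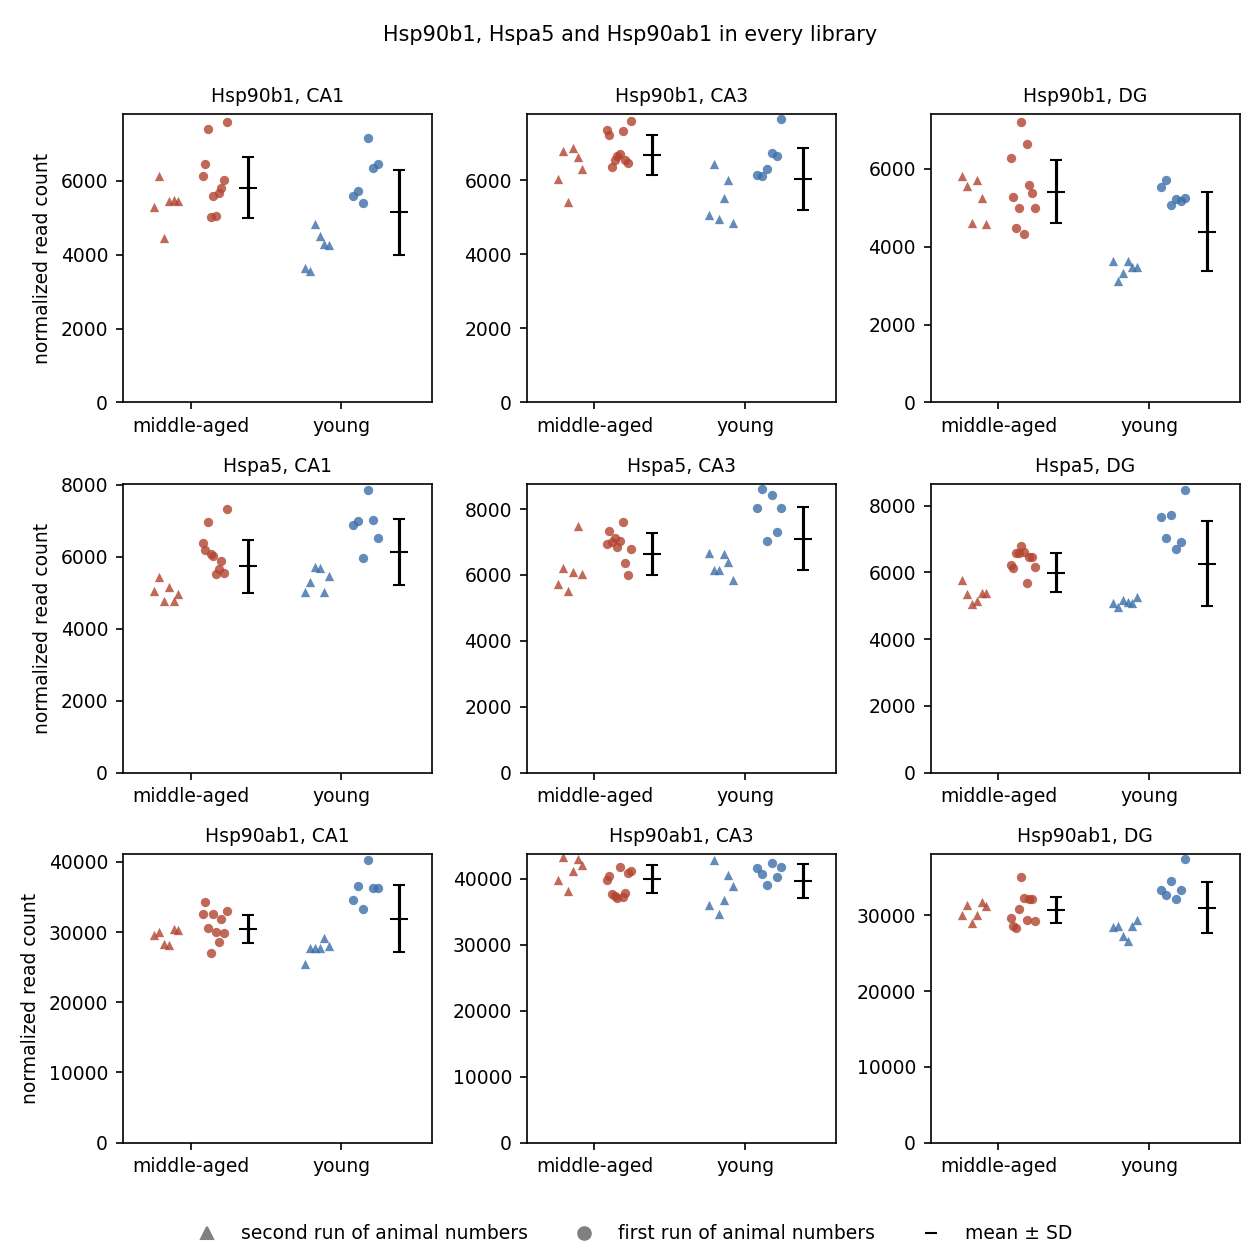
Normalized read counts (vertical axis, from 0) of Hsp90b1, Hspa5 and Hsp90ab1 by age and subregion, with libraries of the first and second run of animal numbers marked and the mean and SD of each age beside them. In the young DG the second-run libraries of Hsp90b1, 3107 to 3638, lie apart from the first-run libraries above them.

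Whether age acted differently on the subregions was tested within rats. For 0 of the 9 genes did the age effect differ between DG and CA1 (0.607% of all genes), between DG and CA3 (2.73%) or between CA1 and CA3 (0%). At an unadjusted p under 0.05, in limma, the counts were 0, 3 and 0, and the share of all genes at that threshold was not counted. The last of these 3, Hspb1, ranked 2752 by p among 14378 genes for DG minus CA3. The nearest was Dnajb1, whose effect was lower in DG than in CA3 by 0.25 ± 0.07 on the log2 scale (adjusted p = 0.0554). It passed in 7 of the 28 fits that each left out 1 rat, with adjusted p between 0.0242 and 0.108. For Hspa1a the difference was 0.03 ± 0.21 for DG minus CA1, with a 95% interval from -0.38 to 0.43, and -0.17 ± 0.17 for CA1 minus CA3, from -0.50 to 0.16. For Hspb1 the difference was -0.36 ± 0.17 for DG minus CA3 (adjusted p = 0.230), so a fall of Hspb1 particular to DG was not shown.

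Normalized levels also differed by subregion. Each table was normalized on its own, so the order of levels in a rat is described without a test. A shift between tables that all genes share can enter this order, and the share of all genes highest in each subregion was not counted. Hsp90ab1 was highest in CA3 in 28 of 28 rats, with medians of 40354 in CA3, 30475 in the DG and 30143 in CA1. CA3 was also highest for Hsp90b1 in 25 rats, for Hsph1, Hspb1 and Hsp90aa1 in 24 each, and for Hspa5 in 22. Hspa1a was lowest in CA1 in 26 rats, with medians of 542 in CA3, 525 in the DG and 286 in CA1, and CA3 and DG could not be ordered, since DG was higher in 11 of 28 rats. Hspa1b showed the same order, with CA1 lowest in 24 rats. Dnajb1 ran the other way: it was highest in CA1 in 25 rats and lowest in DG in 24, with medians of 1362 in CA3, 1236 in the DG and 1549 in CA1. For Hsp90ab1, Hspa5 and Hsp90aa1, CA1 and DG changed places from rat to rat, with DG higher in 17, 16 and 13 of 28 rats.

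**Figure D4:**
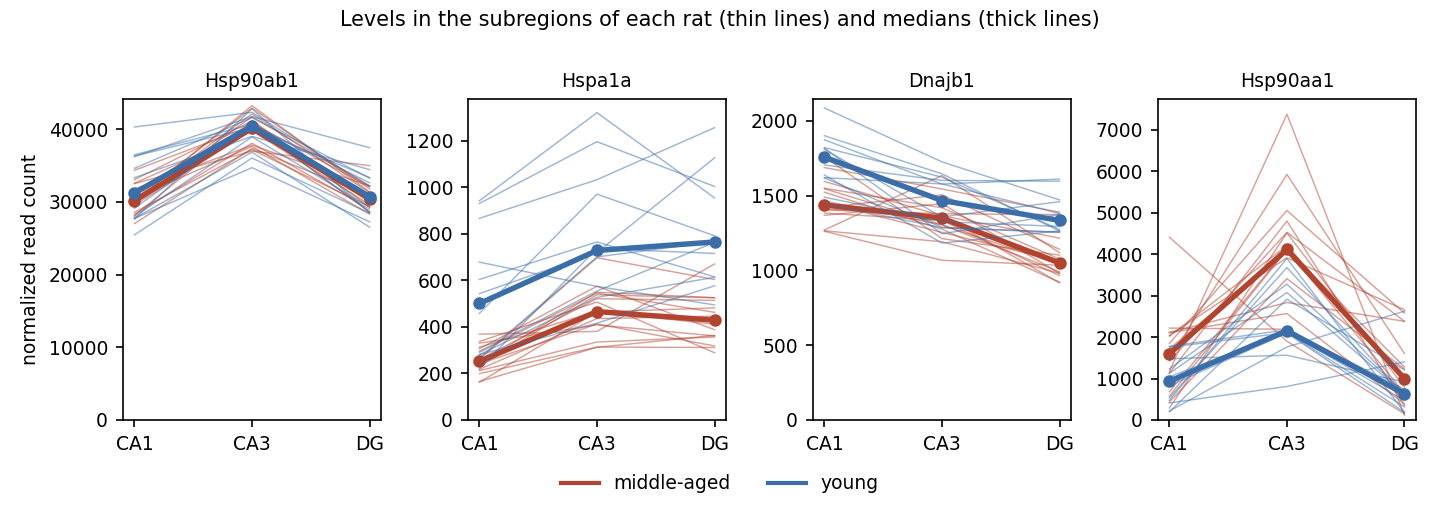
Normalized read counts (vertical axis, from 0) of Hsp90ab1, Hspa1a, Dnajb1 and Hsp90aa1 in CA1, CA3 and DG of each rat (thin lines) with the median of each age (thick lines). Hsp90ab1 peaks in CA3 in all 28 rats, Hspa1a is lowest in CA1 in 26, and Dnajb1 is highest in CA1 in 25.

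Within an age and run, some of the genes rose and fell together from rat to rat. Over 28 rats, on deviations from the mean of each rat's age and run, 45 pairs of genes were compared in each of the 3 subregions, with adjustment over all of these, and 4 passed an adjusted p of 0.05 by both Pearson's r and Spearman's rho. In CA1, Hspa1a and Hspb1 had r = 0.75 and rho = 0.77 (adjusted permutation p = 0.00135 for each, from the smallest p that 100000 permutations can give, 1e-05). The r was 0.71 in the second run and 0.81 in the first, and 0.68 without the 2 rats farthest from the median of Hspa1a. In CA1, Hspa5 and Hsp90b1 had r = 0.75 and rho = 0.69 (adjusted permutation p = 0.0027 and 0.0108), with 0.70 and 0.79 in the second and first run and 0.66 without the 2 farthest rats. Hsp90ab1 and Hsp90b1 had r = 0.61 and rho = 0.60 there (adjusted permutation p = 0.0362 and 0.0418), with 0.53 and 0.65 by run and 0.50 without the 2 farthest. In CA3, Hsph1 and Hspb1 moved oppositely, with r = -0.70 and rho = -0.68 (adjusted permutation p = 0.00855 and 0.0153), -0.83 and -0.58 by run and -0.62 without the 2 farthest. In other subregions these pairs did not pass both tests. For Hspa1a and Hspb1, r was 0.45 in CA3 and 0.43 in DG (adjusted permutation p = 0.126 and 0.172). For Hsp90ab1 and Hsp90b1 it was 0.63 in CA3 (0.0382 for r, 0.0736 for rho) and 0.19 in DG (0.681). For Hsph1 and Hspb1 it was -0.21 in CA1 (0.600) and -0.55 in DG (0.0731).

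**Figure D5:**
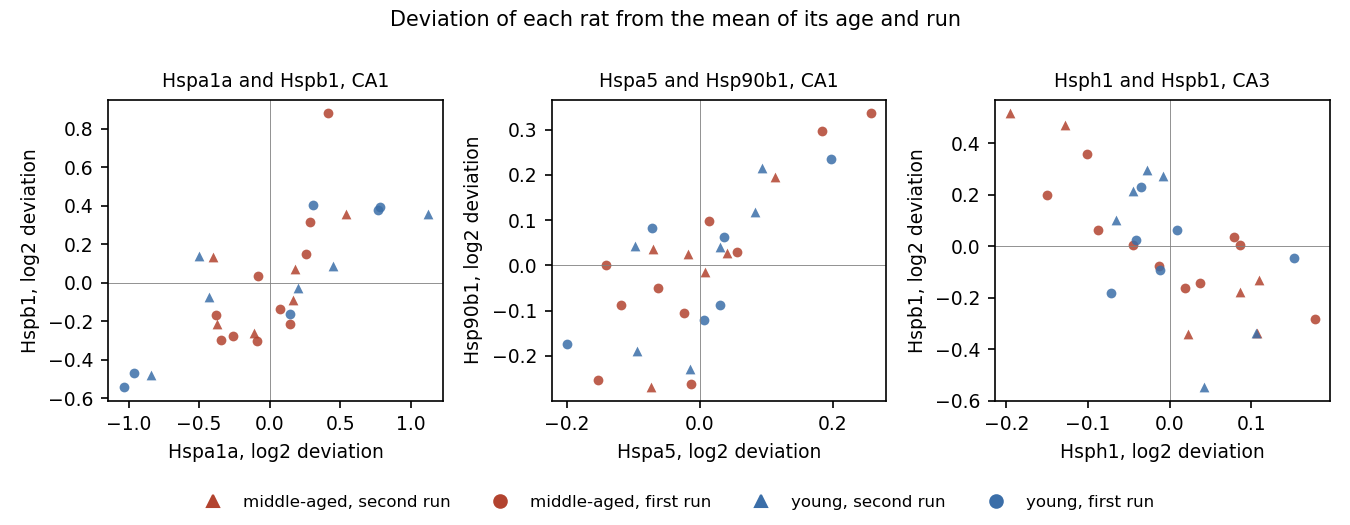
Deviation of each of 28 rats from the mean of its age and run, in log2 units on both axes, for pairs of chaperone genes in 1 subregion, with symbols for age and run. Points for Hspa1a and Hspb1 in CA1 run from lower left to upper right (r = 0.75), and points for Hsph1 and Hspb1 in CA3 from upper left to lower right (r = -0.70).

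A rat's level in 1 subregion went with its level in another for Hspa1a alone among 30 such relations. Between DG and CA3, Hspa1a had r = 0.63 and rho = 0.63 (adjusted permutation p = 0.0363 and 0.0279), with 0.74 in the second and 0.55 in the first run and 0.70 without the 2 farthest rats. Between CA1 and CA3 its r was 0.57 (adjusted permutation p = 0.156), and between DG and CA1 0.39 (adjusted permutation p = 0.304).

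Genes with the most similar pattern were ranked by the mean over the 3 subregions of r with each of 3 chaperone genes, over 28 rats and 14290 genes. For Hsph1 the 8 highest included Map9 (mean r = 0.79), Uso1, Kif1bp, Dmtf1, Fam117b, Camsap2 and Rgs7 (0.76), where 5% of genes exceeded 0.51. For Hspa5 the 8 were Cct5 (0.64), Eif3d, Tpt1, Psmd1, Chmp2a, LOC680121, Rpl3 and Dnaja4 (0.57), with 5% of genes above 0.30. For Hspb1 the 8 were Id3 (0.62), Zfp219, Hspa1a (0.54), Cyth1, Slc6a13, Arap1, Vsig10l and Ppard (0.51), with 5% above 0.33, and of these Hspa1a is itself a chaperone of the group. The genes of a library share its depth and dissection, and these values are a description with no test.

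The genes that control the inducible members moved in both directions. Of 4 heat shock factors and regulators tested, 2 rose and 1 fell in CA1, 3 rose and 1 fell in CA3, and 1 rose and 0 fell in DG. The share of all genes that passed was 25.2% in CA1, 21.7% in CA3 and 37.1% in DG. The list medians were 0.10, 0.23 and 0.07 for CA1, CA3 and DG, and those of all genes are given above. Hsf1, the main activator of heat shock genes, changed by -0.21 ± 0.07 in CA1 (adjusted p = 0.0383) and -0.22 ± 0.05 in CA3 (adjusted p = 0.00504), and by -0.21 ± 0.09 in DG, where it did not pass (adjusted p = 0.0717). Hsf2, a second heat shock factor, rose by 0.37 ± 0.10 in CA1, 0.23 ± 0.07 in CA3 and 0.31 ± 0.11 in DG. Hsbp1, which binds heat shock factor trimers and damps their activity, rose by 0.28 in CA1 and 0.23 in CA3.

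Relatives of HSP70 and HSP90 outside the group were also mixed. Of 10 tested, 2 rose and 1 fell in CA1, 1 rose and 2 fell in CA3, and 4 rose and 3 fell in DG. Beside these counts, 25.2%, 21.7% and 37.1% of all genes passed, and the list medians were 0.02, 0.01 and 0.05. Hspa13, an HSP70 relative of microsomes, rose in all 3, by 0.30 ± 0.08 in CA1, 0.24 ± 0.05 in CA3 and 0.26 ± 0.08 in DG. Hyou1, the large HSP70 relative of the endoplasmic reticulum, fell by 0.19 ± 0.05 in CA1 and 0.17 ± 0.03 in CA3. In DG the mitochondrial HSP70 gene Hspa9 rose by 0.38 ± 0.07, and Hspa4l and Hspa4, relatives of Hsph1, by 0.33 ± 0.06 and 0.23 ± 0.05.

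Among J-domain proteins, 23 tested, 2 rose and 2 fell in CA1, 3 rose and 1 fell in CA3, and 8 rose and 1 fell in DG. Here too 25.2%, 21.7% and 37.1% of all genes passed, and the list medians were 0.04, 0.01 and 0.08. Dnajb4, a close relative of Dnajb1, rose where Dnajb1 fell or did not pass: by 0.30 ± 0.09 in CA1, 0.27 ± 0.07 in CA3 and 0.47 ± 0.11 in DG. Dnajb9, a partner of Hspa5 in the endoplasmic reticulum, rose by 0.36 ± 0.09 in CA3 and 0.48 ± 0.11 in DG. Dnajc5, which guards synaptic vesicle proteins, fell by 0.36 ± 0.07 in CA1 and 0.12 ± 0.04 in CA3.

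Of 25 cochaperones of HSP70 and HSP90, 3 rose and 4 fell in CA1, 2 rose and 4 fell in CA3, and 4 rose and 8 fell in DG. All genes passed at 25.2%, 21.7% and 37.1%, and the list medians were 0.05, -0.01 and 0.06. Bag6, which guides stray membrane proteins to disposal, fell by 0.25 ± 0.05 in CA1 and 0.30 ± 0.07 in DG. Fkbp4, an HSP90 partner in steroid receptor complexes, fell by 0.16 ± 0.04 in CA3, and Hspbp1, an exchange factor for HSP70, by 0.28 ± 0.07 in DG. Cdc37l1, a relative of the kinase cochaperone Cdc37, rose by 0.27 ± 0.07 in CA1 and 0.36 ± 0.07 in DG.

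Of 4 other small heat shock protein genes tested in DG, where 37.1% of all genes passed, 2 fell, Hspb2 by 0.91 ± 0.15 and Hspb6 by 0.29 ± 0.09, and 0 rose, with a list median of -0.24. Of 3 tested in CA1 and in CA3, none passed in limma, and the medians were -0.08 and 0.01. Of 10 chaperonin genes, whose products fold proteins in closed chambers, 2 rose in CA1, 1 rose and 1 fell in CA3, and 3 rose in DG. Their medians were 0.10, 0.04 and 0.09, and 25.2%, 21.7% and 37.1% of all genes passed. Mitochondrial Hspd1 rose by 0.35 ± 0.08 in CA1 and 0.41 ± 0.10 in DG, and its partner Hspe1 by 0.49 ± 0.15 in DG. The cytosolic chaperonin subunit gene Cct8 rose by 0.28 ± 0.07, 0.14 ± 0.04 and 0.25 ± 0.08 in CA1, CA3 and DG.

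Of 24 genes of the endoplasmic reticulum stress response, 4 rose and 1 fell in CA1, 3 rose and 0 fell in CA3, and 5 rose and 3 fell in DG. Against them stand 25.2%, 21.7% and 37.1% of all genes, and the list medians were 0.03, 0.05 and 0.01. Canx, a lectin chaperone, rose by 0.18 ± 0.06 in CA1, 0.14 ± 0.05 in CA3 and 0.33 ± 0.07 in DG, where Hsp90b1 also rose. Atf4, a translation-controlled activator of stress genes, rose by 0.24 ± 0.06 in CA1 and 0.32 ± 0.08 in DG. Xbp1, the spliced activator of this response, rose by 0.22 ± 0.08 in CA1, and Chac1, a glutathione-degrading target of Atf4, fell by 0.38 ± 0.07 there. Up to 4 genes of each of these 7 lists were followed per subregion, 82 results in all, whether or not they passed the pooled test. Only results that passed had a call to lose, so 82 is not the number of calls at stake. With only the first run fitted, 56 lost their call, and with only the second, 11. Signs turned for 4 more results in the former fit and 1 more in the latter, and these are not among the calls lost. When the 3 libraries of a subregion that lay farthest from their group means were dropped, 6 lost their call, all in CA3, among them Hsf2, Cct8 and Canx.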

How the data were processed

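The authors' deposited tables, 1 per subregion, hold a signal per gene and library that their names call normalized counts. Build rn6 and the tools STAR 2.5.3a, DESeq2 3.5 and Partek come from the submitters' processing notes. The sources used here do not give the annotation, the strand or the handling of reads with several matches. The design assumed counts, but the values are scaled: within 0.1 of a whole read, 100% of values up to 1000 reads were multiples of 1 step per library, so whole reads were recovered for the count tools. Every column of per-sample values was mapped to a library; 1 CA3 column names the animal but no subregion and was taken as that middle-aged rat's CA3 library.

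The test was limma 3.58.1 on log2(value + 1) (R 4.3.3, empirical Bayes with a trend, 2-sided). Adjustment (Benjamini-Hochberg, threshold 0.05) took in all genes of a table that passed the filter. Fold changes are on that log2 scale. Differences between subregions used the difference within each rat, since the libraries of a rat come from the same animal per the labels. The replicates are separate rats. Correlations used 100000 permutations of rats within age and run. On simulated data 1.5-fold changes were recovered for 74.6% of changed genes in CA1, 79.1% in CA3 and 88.1% in DG. Alternatives were a pseudocount of 0.5 or 5, a minimum of 50 or none, TMM, median of ratios, edgeR 4.0.16, DESeq2 1.42.0, a term for the run, each run alone, leaving out each rat, no pairing of subregions, and, chosen after seeing the data, dropping the 3 libraries of each subregion that lay farthest from their group means.

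The genes and lists were chosen with earlier results of these data known. All 10 chaperone genes are named in each comparison, and of each list up to 4 genes per subregion with the smallest p. The 8 genes most like Hsph1, Hspa5 and Hspb1 were named by mean r, except 1 that is not reported here. Figures were drawn with matplotlib 3.10.9.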

Additional observations from a re-analysis of the deposited data

Results flagged for a closer look

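For 5 chaperone genes the age effect differed between the 2 runs of animals, by a test of the difference itself in limma with adjustment over all genes. In DG the log2 age effect of Hsp90aa1 was higher by 2.87 in the second run than in the first (2.09 and -0.78; adjusted p = 0.0180). Hsp90b1 was higher by 0.57 there (0.60 and 0.03; adjusted p = 0.00687), Hsph1 by 0.42 (0.34 and -0.08; adjusted p = 0.00627), Hspa5 by 0.28 (0.06 and -0.22; adjusted p = 0.0252) and Hsp90ab1 by 0.26 (0.12 and -0.14; adjusted p = 0.0472). In CA1, Hsp90ab1 was higher by 0.32 (0.09 and -0.22; adjusted p = 0.0331). Within an age, second minus first run, Hsp90b1 changed by -0.06 ± 0.10, Hspa5 by -0.25 ± 0.05 and Hsp90aa1 by 1.88 ± 0.47 in middle-aged DG (standard error; Hsp90aa1 adjusted p = 0.0655 in limma). In young DG, Hsp90b1 changed by -0.63 ± 0.06, Hspa5 by -0.53 ± 0.07 and Hsp90aa1 by -0.995 ± 0.49 (Hsp90aa1 adjusted p = 0.190 in limma). What sets the runs apart was not tested, and in both runs age cannot be told apart from the block of animal numbers.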

How the results depend on the processing

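The called age effects of Hspa1a, Dnajb1, Hspb1, Hsp90aa1 and Hsp90b1 kept their call under both pseudocounts, no filter, a minimum of 50, TMM, median of ratios, edgeR, DESeq2, the run term, the fit without the farthest libraries and every fit that left out 1 rat. The number of chaperone genes called moved with the runs: 5 in CA1 in the second run alone (2 in the pooled fit), 3 in CA1 (Hspa5 added) and 4 in CA3 (Hspa5 and Hsp90b1 added) with a run term, 4 in CA3 in the first run alone and 1 in the second (2 pooled), and 0 in DG in the first (4 pooled). The difference between DG and CA3 called 1 gene with a minimum of 50 and 0 to 1 when 1 rat was left out (0 pooled). In the second run alone it called 1 of the 9 genes, where 5.26% of all genes passed (2.73% pooled). With 1 rat left out, the counts were 2 to 3 in CA1, 2 to 3 in CA3 and 4 in DG. For each run alone in CA1, CA3 and DG, the shares of all genes are given further above. Those with a run term, a minimum of 50 or 1 rat left out are not given. The counts under these 3 settings are therefore not read as a result about the group. Without pairing by rat, which is the replicate block here, 0 differences between subregions were called, as with it. No paired analysis was possible for age because the ages are different rats.

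Among the chaperone genes, signs that turned all belong to effects that did not pass. In the second run alone the log2 effect was 0.093 for Hsp90ab1 in CA1, 0.39 for Hspa8, 0.023 for Hsph1 and 0.20 for Hspb1 in CA3, and 0.064 for Hspa5, 0.12 for Hsp90ab1 and 0.13 for Hspa1b in DG. For Hspa1a, DG minus CA1 was -0.20 there. In the first run alone it was -0.016 for Hsp90b1 in CA1, -0.067 for Hsp90ab1 in CA3, and -0.080 for Hsph1 and -0.78 for Hsp90aa1 in DG. There DG minus CA3 was 0.039 for Hspa1a, and CA1 minus CA3 was 0.11 for Hspb1. Hspa8 in CA3 was 0.073 with a run term and 0.076 in both edgeR and DESeq2. Without the farthest libraries, Hspa5, Hsp90ab1 and Hspa1b in DG were 0.024, 0.030 and 0.022. With 1 rat left out the ranges were -0.090 to 0.056 for Hspa8 in CA3, -0.0065 to 0.021 for Hsp90ab1 in CA3, -0.029 to 0.016 for Hsp90ab1 in DG, -0.080 to 0.073 for Hspa1b in DG, and -0.081 to 0.11 for Hspa1a, DG minus CA1. The cause of these turns was not tested.

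At this depth and number of rats, tests on simulated data recovered 25.4% of 1.2-fold changes in CA1, 40.3% in CA3 and 22.4% in DG. The simulation changed 67 genes 1.2-fold, 67 genes 1.5-fold and 66 genes 2-fold per subregion. In the data far more passed, 3700 in CA1, 3231 in CA3 and 5382 in DG, which eases the adjustment. The recovered shares are thus a rough guide, averaged over genes of unlike spread. A small effect of a chaperone gene can have been missed.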
